A study of Mus musculus with 6 samples.

Results

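Paneth cells sit at the base of the small intestinal crypt, next to the stem cells, and release granules of antimicrobial proteins into the lumen. The genes described here encode proteins of those granules or of the cell's surface. They are 2 lysozymes (Lyz1 and Lyz2), the ribonuclease angiogenin 4 (Ang4), 2 alpha-defensins (Defa24 and Defa17), the metalloprotease matrilysin (Mmp7), the lectin intelectin 1 (Itln1), the mucosal pentraxin 1810030J14Rik, whose current symbol is Mptx1, and the surface glycoprotein Cd24a. The members were chosen by name as known Paneth cell genes, at a time when earlier results of these data were known. Each was found on 1 row, giving 9 of the 21534 gene rows in the table of read counts.

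The RNA came from C57Bl/6 wild-type organoids of ileal origin, that is, closed epithelial cultures. All cultures had first spent 96 hours with 10 µM CHIR99021, which blocks the kinase GSK3 and so switches on Wnt signalling, to enrich them for stem cells. Treatment with 10 µM retinoic acid or its vehicle DMSO lasted 24 hours, and each group has 3 libraries. The sources used here give neither the sex, age and number of mice nor whether libraries came from separate cultures. The p-values therefore cover only the spread among these 6 libraries, and that spread may be technical.

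Background on these proteins helps in reading the values. Lysozyme 1 cleaves bacterial cell walls and is the Paneth cell lysozyme, whereas lysozyme 2 is the main lysozyme of macrophages. Alpha-defensins are made as inactive precursors, and in the mouse intestine Mmp7 cuts them to their active form. Cd24a is used to sort Paneth cells, but it is also found on stem, enteroendocrine and tuft cells, and intelectin 1 is also made by goblet cells. Wnt signalling, which CHIR99021 activates, favours the maturation of Paneth cells.

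Total counts ran from 14919144 to 21833846 reads per library. The second principal component, with 20% of the variance, separated both libraries numbered 3 from the rest, and results that change without these libraries are given both ways. The 8 epithelial markers summed to between 11720 and 12870 CPM (reads in every 1000000, after TMM scaling of the library) in each library. The 10 stromal and endothelial markers summed to at most 7.76 CPM, with no called member, and the 15 myeloid and lymphoid markers to at most 34.9 CPM, mostly from Csf1r. Of these immune markers 3 were tested and 1 was called higher, Cd68, a lysosomal protein, at 4.31 CPM with vehicle against 7.28. Of the epithelial markers 1 of 8 was called higher, the transcription factor Elf3. The labels call the cells intestinal stem cells, and the stem cell marker Lgr5 stood at 126 CPM in the vehicle group. The 9 Paneth genes were present in the same libraries and summed to between 5942 and 6474 CPM with vehicle, mostly from Lyz1. A sum of 9 genes set beside 1 gene does not compare the numbers of the 2 cell types.

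Lyz1 and Lyz2 are neighbouring copies on chromosome 10 of mm10, with 5521 bases between them. The 447 coding bases of each are identical at 425 positions (95.1%), per the GENCODE M21 transcripts. The bases before their start sites are shown because the copies share much of this sequence and differ widely in level. Both are from RefSeq on GRCm38.p6, on the minus strand, written 5′ to 3′, and end at the base before the RefSeq start; capitals mark the positions at which the copies differ. Lyz1 lies at chr10:117292869-117293008 and Lyz2 at chr10:117282273-117282412. On this strand the Lyz2 gene begins at 117282321 in GENCODE and at 117282274 in the table. The last bases of its window therefore lie inside the gene as both place it.
Lyz1: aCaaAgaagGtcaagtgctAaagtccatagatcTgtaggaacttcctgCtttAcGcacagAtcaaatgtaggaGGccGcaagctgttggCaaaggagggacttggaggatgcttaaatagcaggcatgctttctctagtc
Lyz2: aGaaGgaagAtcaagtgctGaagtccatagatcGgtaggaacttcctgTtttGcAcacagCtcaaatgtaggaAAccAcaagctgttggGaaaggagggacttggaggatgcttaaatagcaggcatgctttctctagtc
The copies were identical at 127 of these 140 positions, and 1 of the 13 differences lay in the last 60 bases. Lyz1 held 1 match to the nuclear receptor half-site AGGTCA, which began 133 bases before the start. In the same 250 bases before the start, on both strands, 14% of 32851 RefSeq promoters held that motif. A match is a description of letters and does not show a bound site.

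The promoters of Mmp7 and 1810030J14Rik are shown because these genes differed the most between treatments, and in opposite directions. Each window holds the 250 bases before the RefSeq start on the plus strand of GRCm38.p6, 5′ to 3′, at chr9:7691840-7692089 for Mmp7 and chr1:174330268-174330517 for 1810030J14Rik. Capitals mark a match to CTTTGA, the core letters recognised by the TCF and LEF factors of Wnt signalling.
Mmp7: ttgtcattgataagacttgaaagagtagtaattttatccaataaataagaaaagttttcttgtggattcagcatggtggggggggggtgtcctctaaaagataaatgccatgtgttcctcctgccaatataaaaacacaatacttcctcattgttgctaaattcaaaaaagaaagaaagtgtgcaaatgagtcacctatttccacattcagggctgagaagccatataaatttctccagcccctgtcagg
1810030J14Rik: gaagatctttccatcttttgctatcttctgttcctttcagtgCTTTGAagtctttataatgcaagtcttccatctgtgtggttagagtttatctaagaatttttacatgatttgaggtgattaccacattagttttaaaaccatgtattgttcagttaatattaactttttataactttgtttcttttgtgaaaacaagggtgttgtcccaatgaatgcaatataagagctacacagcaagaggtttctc
The 1810030J14Rik window held CTTTGA once, 208 bases before the start, and 13.8% of all promoters held it on either strand. The Mmp7 window shown held neither of these motifs. RefSeq has a second Mmp7 start, whose window (chr9:7692091-7692340) lies inside the gene as the table places it, and that window held CTTTGA once on the other strand, 246 bases before the second start. An E-box spelled CATATG was also searched and was in none of the 7 windows of these genes, while 3.46% of all promoters held it. RefSeq windows were found for 6 of the 9 genes, and those of Itln1 and Ang4 held no match and are not shown.

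With vehicle, the Paneth genes differed in level by more than 3 orders of magnitude. Levels between genes were compared as CPM per kb of GENCODE M21 exon. Lyz1 stood highest, at 3000 ± 116 CPM per kb (SD, n = 3). Defa24 followed at 1088 ± 83.6, Itln1 at 680.2 ± 17.7, Ang4 at 584 ± 52.1, Cd24a at 233 ± 25.1 and Mmp7 at 163 ± 34.5 CPM per kb. The pentraxin 1810030J14Rik was far lower at 18.2 ± 4.37, and Defa17 (1.23 ± 0.306) and Lyz2 (0.678 ± 0.0559) lay near the floor. The ranges over the vehicle libraries did not overlap between any neighbours in this order: those of Itln1 and Ang4, for example, were 660.0 to 693 and 524 to 617 CPM per kb. With retinoic acid, Mmp7 (239 to 262 CPM per kb) stood above Cd24a (144 to 167), and the ranges of Defa17 and Lyz2 overlapped. The Cd24a gene starts at 43578284 in GENCODE and only at 43579169 in the table, so the exon length used may be too long for its counts. Its level per kb may therefore be too low, and its place below Mmp7 may depend on the length used.

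**Figure D1:**
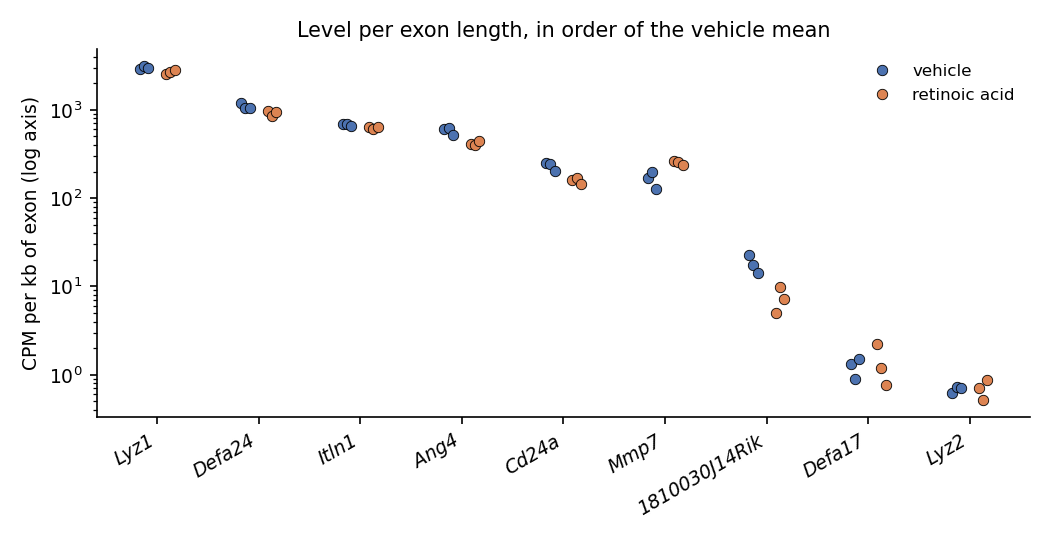
Level of each gene per exon length (CPM per kb, log axis), 1 point per library, vehicle in blue and retinoic acid in orange, in order of the vehicle mean. Lyz1 is highest at 3000 CPM per kb with vehicle, and Lyz2 and Defa17 are lowest. At the GENCODE exon lengths, which may be too long for Cd24a, Mmp7 and Cd24a change places with retinoic acid.

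How surely a read can be given to 1 of these genes differed among them. Of all stretches of 50 bases in its GENCODE transcripts, Itln1 had 99% found in no other gene's transcripts, Cd24a 97.3%, Ang4 95.3%, Mmp7 92.6%, Lyz2 84.6%, Lyz1 83.9%, 1810030J14Rik 82.1% and Defa24 71.9%. Defa17 had 8.05%, and 92% of its stretches were shared with Defa3. Neither the read length nor the treatment of reads that match several genes is stated in the labels or file headers. The low count of Defa17 therefore cannot be told apart from reads lost or given to other defensins.

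The comparison asked which of the genes responded to retinoic acid in stem cell-enriched organoids. The members went both ways. Of the 8 that passed the filter on low counts, 3 fell, 1 rose and 4 were not called. A call is an adjusted p (Benjamini-Hochberg) below 0.05 in the quasi-likelihood test of edgeR across 13700 rows. The background in that test was 4.09% of rows called lower, 5.37% called higher and 9.46% called in either direction. The 3 that fell were 1810030J14Rik, Cd24a and Ang4, and the 1 that rose was Mmp7. The median log2 fold change of the 8 was −0.20, against −0.01 for all rows tested. With both libraries numbered 3 left out, or with retinoic acid library 3 alone left out, 5 members were lower, Lyz1 and Defa24 being added, and 1 higher. The calls over all rows rose as well in these fits, to 734 lower and 922 higher without both libraries and to 787 lower and 978 higher without retinoic acid library 3. Scaling by library totals alone gave 6 lower and 1 higher, and 869 lower and 518 higher over all rows, against 560 and 736 with TMM scaling.

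In a bulk sample, fewer Paneth cells and less RNA per cell cannot be told apart. All retinoic acid libraries lay below all vehicle libraries for 6 of the 8 tested members and above them for 1, where 12.6% of all tested rows were lower without overlap, 12.9% higher and 25.5% either. The 9 genes together took 0.635 ± 0.0272% of all reads with vehicle and 0.535 ± 0.0140% with retinoic acid (SD, n = 3). Lyz1 made up most of that sum, 60.9 ± 1.67% with vehicle and 61.9 ± 1.61% with retinoic acid.

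**Figure D2:**
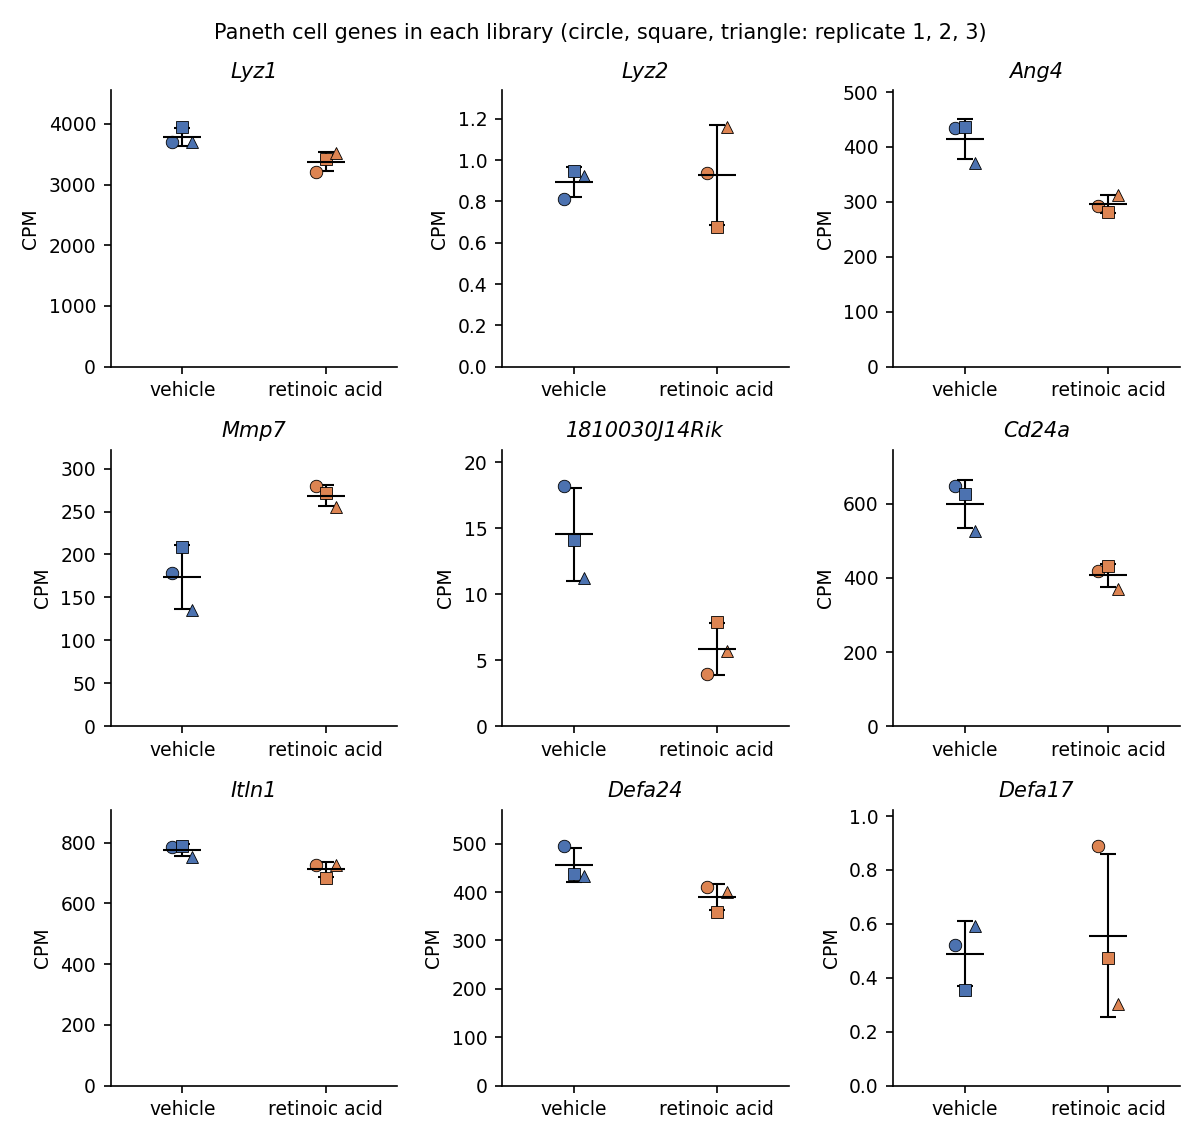
CPM of each gene in the 3 vehicle (blue) and 3 retinoic acid (orange) libraries; the horizontal line is the mean and the bar 1 SD, and marker shapes give the replicate number. Each panel has its own axis from 0; the groups separate in every panel but those of Lyz2 and Defa17, and Mmp7 alone is higher with retinoic acid among the separated genes.

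Among the lysozymes, Lyz1 (ENSMUSG00000069515, mm10 chromosome 10, 117287796 to 117292868, 4 exons) had 3700, 3958 and 3709 CPM in vehicle libraries 1, 2 and 3 and 3205, 3419 and 3520 CPM in retinoic acid libraries 1, 2 and 3. Every retinoic acid library lay below every vehicle library, but the gap between the highest of the former and the lowest of the latter was small. The log2 fold change was −0.16 (SE 0.05, 95% interval, not adjusted for the number of rows, −0.28 to −0.05), which did not pass the threshold (edgeR adjusted p = 0.072). It passed without retinoic acid library 3 (0.0206) and without both libraries numbered 3 (0.0138), and missed without each of the other libraries (0.111 to 0.313). The adjusted p was also under the threshold with library totals alone (0.015), with no filter (0.0458), in DESeq2 (0.0487) and in limma-voom (0.0481). With the replicate number added to the edgeR model it was 0.006. It was above the threshold with DESeq2 size factors (0.0781) and with a stricter filter, 10 or more counts throughout 1 of the groups (0.0809).

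Lyz2 (ENSMUSG00000069516, mm10 chromosome 10, 117277334 to 117282274, 4 exons) had 14, 16 and 14 counts with vehicle and 20, 10 and 23 with retinoic acid, that is 0.893 ± 0.0735 and 0.926 ± 0.242 CPM (SD, n = 3). The groups overlapped. At these counts the 95% interval of the log2 fold change (0.07) ran from −0.73 to 0.88, so changes within that range remain possible. The interval is not adjusted for the number of rows and does not give the smallest change that could be called. Lyz2 is a macrophage gene, and the myeloid and lymphoid markers did not move in one direction. Over the 3 libraries of each group, Ptprc, Adgre1 (Emr1 in the table) and Tyrobp had 2, 6 and 1 counts with vehicle and 0, 1 and 0 with retinoic acid. Csf1r had 1038 and 1149 counts, Cd68 212 and 403, Itgam 83 and 154 and Aif1 6 and 23, and of these Cd68 was called higher. Their part in the Lyz2 counts was not tested.

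Among the defensins, Defa24 (ENSMUSG00000064213, mm10 chromosome 8, 21734494 to 21735471, 2 exons) had 496, 437 and 434 CPM with vehicle and 411, 358 and 401 CPM with retinoic acid in libraries 1, 2 and 3. The groups did not overlap, and the lowest vehicle library lay just above the highest retinoic acid library. The log2 fold change was −0.23 (SE 0.07, 95% interval −0.37 to −0.08) and was not called (edgeR adjusted p = 0.0573). Without retinoic acid library 3 it was called (0.0254), as it was without both libraries numbered 3 (0.0115), and without the others in turn it was not (0.0546 to 0.241). It was also called with no filter (0.0106), with library totals alone (0.0173), in DESeq2 (0.026) and with the replicate number in the edgeR model (0.00215). It was not called in limma-voom (0.052), with DESeq2 size factors (0.0593) or with the stricter filter (0.0546). The authors' deposited table lists Defa24 at an FDR of 0.0424 and Lyz1 at 0.0791.

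Defa17 (ENSMUSG00000060208, mm10 chromosome 8, 21655780 to 21656735, 2 exons), whose 282 coding bases match those of Defa24 at 270 positions (95.7%), had 9, 6 and 9 counts with vehicle and 19, 7 and 6 with retinoic acid. It did not pass the filter in the full set of libraries and has no test. Retinoic acid library 1 was the highest and the other libraries lay close together.

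Since reads of the alpha-defensins can be split among copies, their sum was also read. The sum covers 13 rows with counts in the chromosome 8 cluster, those with an alpha-defensin symbol together with AY761184 and Gm14851, a set gathered after the values were seen and so not tested. It leaves out Gm15292 and Gm15293, which lie in the same cluster and had 16 and 2 counts with vehicle and 5 and 1 with retinoic acid. Their sum was 571 ± 48.9 CPM in the vehicle group and 476 ± 33.3 CPM in the treated group (SD, n = 3). Defa24 made up 79.8 ± 0.946% of the sum with vehicle and 82 ± 0.234% with retinoic acid. Of the 8 rows with a test, 8 had a negative log2 fold change (−0.53 to −0.10), where the median of all tested rows was −0.01. Of the 8, 1 was called lower, Gm15284 (current symbol Defa30), against 4.09% of all tested rows. Defa24 shares 26.5% of its stretches of 50 bases with Defa30, so these rows are not independent of each other.

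Mmp7, the protease that activates defensins (ENSMUSG00000018623, mm10 chromosome 9, 7692090 to 7699585, 6 exons), went the other way. It had 178, 208 and 135 CPM in vehicle libraries 1, 2 and 3 and 280, 271 and 255 CPM in retinoic acid libraries 1, 2 and 3. All retinoic acid libraries were higher, and the spread was wider with vehicle (coefficient of variation 21.2%) than with retinoic acid (4.68%), with vehicle library 3 the lowest. The increase was 1.54-fold (log2 fold change 0.63, SE 0.11, 95% interval 0.39 to 0.87, edgeR adjusted p = 0.00244), and it stayed called whichever library was left out (log2 fold change 0.48 to 0.78). The antisense gene AV064505 overlaps Mmp7 on the other strand over 3542 bases. Its level was 12.7 ± 3.96 CPM in the vehicle group and 20.2 ± 1.53 CPM in the retinoic acid group (SD, n = 3). The libraries were directional but the use of strand in counting is not given, so reads from the shared bases cannot be told apart.

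Ang4, an antimicrobial ribonuclease (ENSMUSG00000060615, mm10 chromosome 14, 51763878 to 51773590, 2 exons), had 434, 437 and 372 CPM with vehicle and 293, 282 and 313 CPM with retinoic acid in libraries 1, 2 and 3. The groups did not overlap, although vehicle library 3 lay nearest to the retinoic acid libraries. The 95% interval of its log2 fold change of −0.48 was −0.63 to −0.34 (edgeR adjusted p = 0.000487), and it stayed called whichever library was left out (−0.56 to −0.44).

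Of the carbohydrate-binding and pentraxin proteins, Itln1 (ENSMUSG00000038209, mm10 chromosome 1, 171518122 to 171535294, 3 to 8 exons) had 784, 791 and 753 CPM with vehicle and 727, 684 and 728 CPM with retinoic acid. It was the steadiest of the members, with a coefficient of variation of 2.6% with vehicle, and its groups did not overlap. The log2 fold change of −0.12 (95% interval −0.24 to −0.01) was not called (edgeR adjusted p = 0.197), nor was it without any 1 library (0.147 to 0.495). Scaling by library totals alone called it lower (0.0459).

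The pentraxin gene 1810030J14Rik (ENSMUSG00000026531, mm10 chromosome 1, 174330518 to 174332873, 2 exons) had 18.2, 14.2 and 11.3 CPM with vehicle and 3.98, 7.86 and 5.71 CPM with retinoic acid in libraries 1, 2 and 3. The groups did not overlap, and its spread with vehicle (coefficient of variation 24%) was wider than that of the abundant granule genes. It was the member with the largest fall, to 0.395 of the vehicle level (95% interval of the log2 fold change −1.81 to −0.87, edgeR adjusted p = 0.00137; −1.59 to −1.11 with 1 library left out). Its close relative Mptx2 (Gm11062 in the table), with which it shares 17.9% of its stretches of 50 bases, stood at 4.92 CPM in the vehicle group and 3.24 CPM in the treated group, with no call (edgeR adjusted p = 0.101).

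Cd24a, the surface protein (ENSMUSG00000047139, mm10 chromosome 10, 43579169 to 43584262, 2 exons), had 648, 627 and 527 CPM with vehicle and 418, 431 and 371 CPM with retinoic acid in libraries 1, 2 and 3. The groups did not overlap, and library 3 was the lowest in both. Its level fell to 0.677 of that with vehicle (95% interval of the log2 fold change −0.73 to −0.39, edgeR adjusted p = 0.000381; −0.65 to −0.50 with 1 library left out). Of 9 markers of other cell types that carry CD24, the stem cell markers Olfm4 (log2 fold change −1.67) and Lgr5 (−0.64) fell, and the stem cell gene Ascl2, the enteroendocrine genes Chga, Chgb and Neurod1 and the tuft cell genes Pou2f3, Trpm5 and Dclk1 were not called (edgeR adjusted p from 0.325 to 0.982). The 9 markers summed to between 956 and 1209 CPM in the vehicle group and between 864 and 1077 CPM with retinoic acid, and their part in the fall of Cd24a was not tested.

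**Figure D3:**
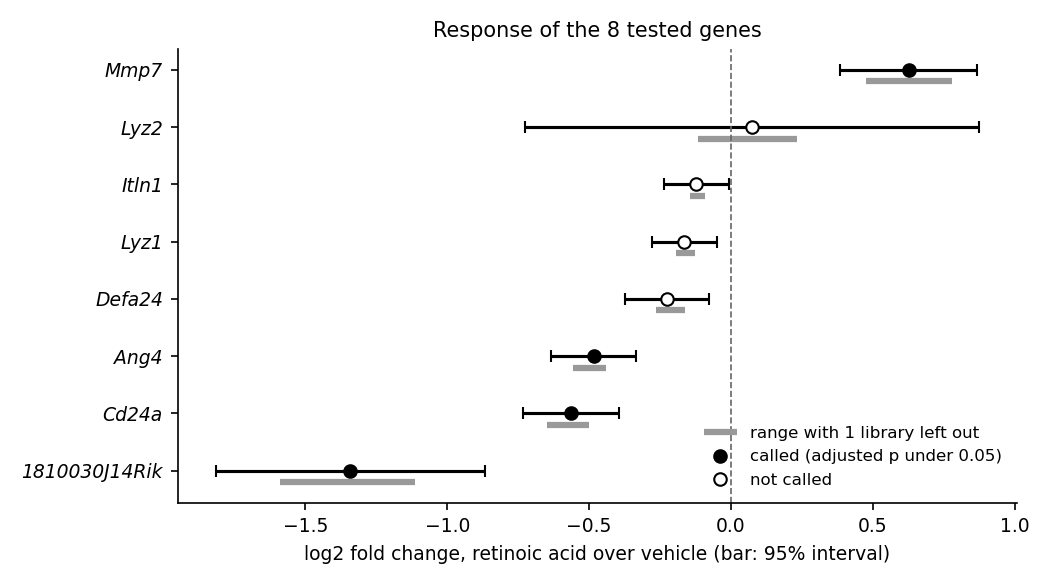
Log2 fold change of the 8 tested genes (points) with the 95% interval (black bars) and the range over fits with 1 library left out (grey bars); filled points passed an adjusted p of 0.05. Mmp7 lies at 0.63, 1810030J14Rik at −1.34, and Lyz2 has the widest interval relative to its change, crossing 0.

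Members were also set against each other as 4 ratios of CPM (log2, pseudocount 0.5 CPM), compared by an exact two-sided permutation test in which 3 against 3 cannot give a p below 0.1. The Mmp7 to Ang4 ratio went from −1.27 ± 0.195 with vehicle to −0.14 ± 0.135 with retinoic acid, and the Mmp7 to 1810030J14Rik ratio from 3.54 ± 0.288 to 5.45 ± 0.478 (SD, n = 3). Mmp7 was higher and the other 2 genes lower without overlap, so these ratios had to separate the groups, and they are given as a description with no test. The Lyz2 to Lyz1 ratio differed by 0.19 (exact p = 0.4, adjusted 0.4) and the Defa17 to Defa24 ratio by 0.29 (exact p = 0.3, adjusted 0.4), both within the spread of the libraries.

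Further lists of Paneth cell and related genes were read, and their counts stand beside the same background of 4.09% lower and 5.37% higher. Which cells made these transcripts was not tested. Of 16 tested genes listed as other granule proteins 6 fell and none rose, with a median log2 fold change of −0.41. Among them, Reg4, a secreted lectin, went from 281 to 145 CPM (log2 fold change −0.96) and Reg3b, a bactericidal lectin, from 2.70 to 0.919 CPM (−1.53). Pnliprp2, a lipase-related protein, went from 6.84 to 3.71 CPM (−0.89) and the defensin gene Gm15284 from 80.8 to 58.7 CPM (−0.46). These 4 stayed called whichever library was left out. The rest of the 6 lost their call without vehicle library 1 or 2 or retinoic acid library 1 (355, 346 and 289 lower over all rows, against 560). Reg3g, a related lectin, stood at 8.28 and 7.30 CPM and was not called (edgeR adjusted p = 0.686).

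Genes listed as regulators of secretory and Paneth cells, not all of which specify these cells, were mostly not called. Of 14 tested, 3 fell and none rose, and the median log2 fold change was −0.17. Without vehicle library 3, or without both libraries numbered 3, 5 fell (458 and 734 lower over all rows, against 560 in the full fit). Without retinoic acid library 3, 2 rose, and without both libraries numbered 3, 1 rose (978 and 922 higher over all rows, against 736). The 3 were Fgfr3, a fibroblast growth factor receptor (log2 fold change −0.73), Ephb3, a receptor that keeps Paneth cells at the crypt base (−0.39), and Spdef, a factor of goblet and Paneth cell maturation (−0.30), whose call was lost without vehicle library 1 or 2 or retinoic acid library 1 or 2 (edgeR adjusted p up to 0.13). Atoh1, the master factor of the secretory lineage, had 93.1 and 80.1 CPM with vehicle and retinoic acid, Sox9, which Paneth cells require, 292 and 270.1 CPM, and Gfi1, which acts downstream of Atoh1, 9.88 and 8.76 CPM. None of these 3 was called (edgeR adjusted p = 0.143, 0.467 and 0.566).

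Of 7 tested niche ligands 2 rose and 2 fell, with a median log2 fold change of 0.12. Wnt3, the Wnt ligand that Paneth cells supply to stem cells, went from 34.7 to 24.2 CPM (log2 fold change −0.53), and the Notch ligand Dll1 from 20.5 to 13.4 CPM (−0.61). Dll1 lost its call without vehicle library 2 (edgeR adjusted p = 0.0522), retinoic acid library 1 (0.0801) or retinoic acid library 2 (0.0616), which left 1 lower ligand. Over all rows 346, 289 and 420 were called lower in these fits, against 560 in the full fit. The 2 that rose, Areg (0.65) and Ereg (0.54), are EGF family ligands that are not particular to Paneth cells.

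In the list of defensin processing and granule export, which holds Mmp7 itself, 4 of 10 rose and 1 fell, with a median log2 fold change of 0.30. Besides Mmp7 the genes called were Hspa5, a chaperone of the endoplasmic reticulum (0.35), Mmp14, a membrane metalloprotease (0.56), Syt7, a calcium sensor of vesicle release (0.39), and, lower, Rab3d, a GTPase of secretory granules (−0.26). The 4 became 2 without vehicle library 1 or 3 or retinoic acid library 1 or 2, and with library totals alone. Higher calls over all rows also fell, from 736 to 477, 550, 443, 501 and 518 in that order. Syt7 was called in 1 of the 6 fits with 1 library left out (edgeR adjusted p up to 0.208), Mmp14 in 2 of 6 (up to 0.211) and Hspa5 in 6 of 6. With library totals alone Syt7 also lost its call (0.0717), and Rab3d lost its own without library 1 or 2 of either group. Of 11 goblet cell secreted genes 1 fell and 1 rose, with a median log2 fold change of −0.17. The mucus gene Clca1 (Clca3 in the table) rose from 104 to 783 CPM, and Agr2, a disulfide isomerase of mucus-making cells, went from 129 to 91.2 CPM (−0.50). The number of lower goblet genes was 0 without vehicle library 1 or 2, 2 without vehicle library 3, 3 without retinoic acid library 3 and 4 without both libraries numbered 3. Lower calls over all rows were 355, 346, 458, 787 and 734 in that order, against 560 in the full fit.

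**Figure D4:**
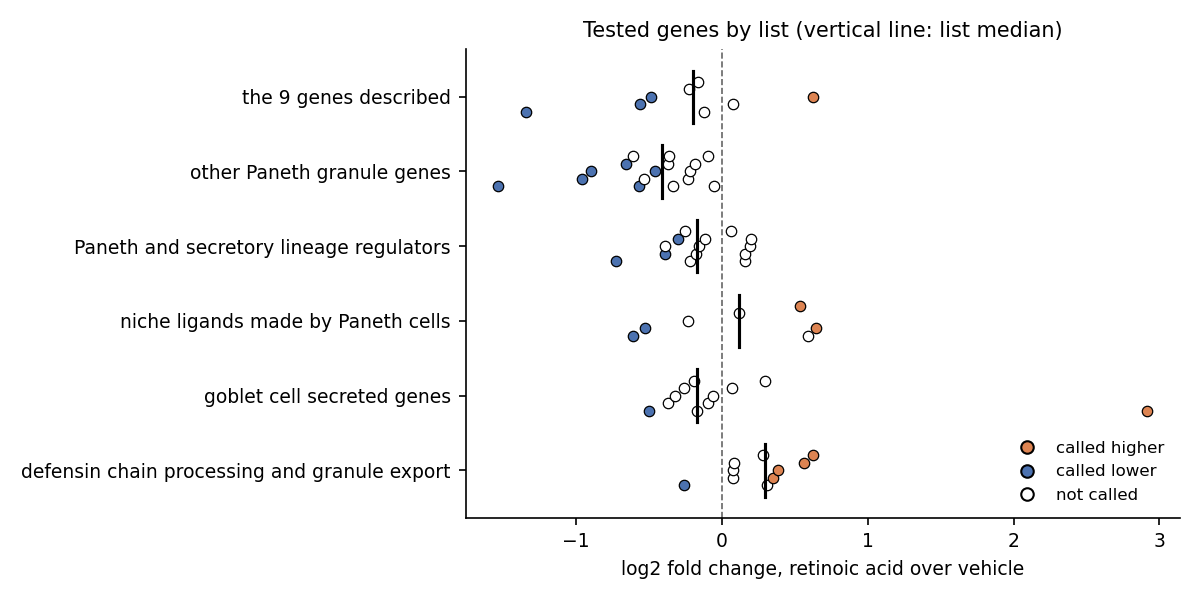
Log2 fold change of each tested gene by list (points), with the list median as a vertical line; orange points were called higher, blue points lower and open points not called. The other Paneth granule genes have a median of −0.41 with 6 called lower, while Clca1 lies alone at 2.92 among goblet genes.

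The rows whose pattern over the 6 libraries was most like that of each called member were found by the root mean square difference in log2 CPM after centring each gene on its mean, among 11329 named rows with a mean of at least 1 CPM. For Ang4 they were Xrcc2 (0.028), Mcm4 (0.039) and Ppm1k (0.045). For Cd24a they were Oip5 (0.039), Rnf32 (0.046) and Rassf2 (0.057). The nearest rows for Mmp7 lay farther off, with Trim12a (0.08), Gstm1 (0.097) and Ecscr (0.10), and those for 1810030J14Rik farther still, with Cyp2w1 (0.229), Lypd6b (0.266) and Barx2 (0.266). The members' own root mean square about their mean also differed. It was 0.256 for Ang4, 0.302 for Cd24a, 0.373 for Mmp7 and 0.71 for 1810030J14Rik, so the distances are not on 1 scale. None of these 12 genes is a member or on the Paneth lists, which hold few of the 11329 rows searched. Their absence is therefore given only as a description. Symbols that start with Gm or RP, end in Rik or hold a dot were also left out of the search. The member 1810030J14Rik and listed granule genes such as Gm15284 and Gm11062 therefore could not be found.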

How the data were processed

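Directional polyA libraries were made from organoid RNA, per the labels' protocols. The authors deposited raw read counts per gene for 6 libraries, and, per the file headers, DESeq statistics (log2 fold change with and without shrinkage, p-value and FDR). The build is mm10, per the submitters' processing notes, while the aligner, annotation and counting options were not given in the sources used here. Groups and replicate numbers came from sample titles.

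Counts were fitted with edgeR 4.0.16 in R 4.3.3 (filterByExpr, TMM factors 0.978 to 1.02, glmQLFit and glmQLFTest, treatment as the only term), and p-values were adjusted over all 13700 rows tested. The SE is the absolute log2 fold change over the root of F, and 95% intervals use the test's degrees of freedom. Replicates of a group differed by more than sampling noise (chi-square per row 3.43 to 8.60). The fit was tested on simulated data for the retinoic acid comparison (13700 genes), where it called 74% of the 1.5-fold and 90% of the 2-fold changes. Of its calls, 5.75% were unchanged genes. Changes were planted only in rows with a mean above 1 CPM, and changes below 1.5-fold were not simulated.

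Named genes are all members, up to 4 called genes of each further list with the smallest p, markers of other cell types, and the 3 most alike rows of each called member. Reg3g, Mptx2, Mmp14, Atoh1, Sox9, Gfi1, AV064505, Ang and Rnase4 were named after their values were seen. The members and lists were chosen with earlier results of these data known. GENCODE M21 and RefSeq (GRCm38.p6) gave gene models and promoters. Protein sequences were not used here. Alternatives were DESeq2 size factors, library totals alone, 2 other filters, DESeq2 1.42.0, limma-voom 3.58.1, a replicate block, a pseudocount of 2 CPM and leaving out libraries; leaving out both libraries numbered 3 was chosen after seeing the data.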

Additional observations from a re-analysis of the deposited data

How the results depend on the processing

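The 4 called members kept their direction and call in every alternative run. The number of lower members was 3 in the reported fit, 4 with limma-voom and 6 with library totals alone. It was 5 with no filter, with DESeq2, with the replicate block and without both libraries numbered 3. Over all rows the lower calls were 752 of 21534 with no filter, 522 of 21534 with DESeq2 and 556 of 13700 with limma-voom. Lyz2, at 0.07 as reported, ran from −0.116 (without retinoic acid library 3) to 0.232 (without retinoic acid library 2) with 1 library left out, and was −0.092 without both libraries numbered 3. Lineage regulators called lower numbered 5 with library totals alone, the replicate block and without both libraries numbered 3, and those called higher 1 with the replicate block and without both libraries numbered 3. Goblet genes called lower numbered 2 with library totals alone, 3 with the replicate block and 4 with no filter and without both libraries numbered 3. Processing and export genes called higher numbered 2 with library totals alone. With 1 library left out, members called lower ranged from 3 to 5, other granule genes called lower from 4 to 6, regulators called higher from 0 to 2 and lower from 2 to 5, ligands called lower from 1 to 2, goblet genes called lower from 0 to 3, and processing genes called higher from 2 to 4 and lower from 0 to 1. Calls over all rows ranged in these fits from 443 to 978 higher and from 289 to 787 lower. The cause of these moves was not tested. Deviations of same-numbered libraries had positive correlations (0.128, 0.0975 and 0.257), and each library correlated best with its own number. The titles give no pairing, so the reported fit has none, and whether the numbers are pairs was not tested. With the replicate block the edgeR adjusted p was 0.006 for Lyz1 and 0.00215 for Defa24, both called lower. The replicate block raised the calls over all rows from 736 higher and 560 lower to 1224 and 1052. Low counts limit Lyz2 and Defa17.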

Other observations

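Ang and Rnase4, other ribonuclease genes on the same chromosome as Ang4, rose while Ang4 fell. Ang, a paralogue of Ang4 (mm10 chromosome 14, 51091077 to 51102007), had 45.5, 47.7 and 42.8 CPM in vehicle libraries 1, 2 and 3 and 71.3, 70.5 and 74.1 CPM in retinoic acid libraries 1, 2 and 3. Its increase was 1.59-fold (edgeR adjusted p = 3.17e-05) and stayed called whichever library was left out. Rnase4, which starts at the same base as Ang and overlaps it on the same strand, went from 341 ± 32.2 CPM in the vehicle group to 642 ± 14.2 CPM in the treated group (SD, n = 3), a 1.88-fold increase (edgeR adjusted p = 6.68e-07). Reads of Ang and Rnase4 cannot be fully told apart. Both genes were chosen after their values were seen.

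The antisense gene AV064505 held a near-constant share of the Mmp7 count, from 6.24% to 7.95% over the 6 libraries. Of the stretches of 50 bases in Mmp7, 7.36% were found in AV064505 on the opposite strand. AV064505 was called higher (log2 fold change 0.66, edgeR adjusted p = 0.028) and lost the call without 4 of the libraries in turn (up to 0.09).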
